A study of Mus musculus with 35 samples.

Results

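Cathepsins are proteases of the lysosome, and expression of 9 of them, Ctsa, Ctsb, Ctsc, Ctsd, Ctsh, Ctsk, Ctsl, Ctss and Ctsz, was followed across sorted mouse mammary cells of 2 reproductive histories. They are 9 of 19937 genes with a probe set that names a single gene. The members were chosen by name, though with earlier results of these data known. Each of the 9 had 1 such probe set. Expression is given in log2 units of the authors' deposited values, so that a difference of 1 is a 2-fold change, and the level of one gene cannot be set against that of another because each probe set has its own response.

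The series holds 35 samples, 1 array each, in 12 groups. Parous mice were mated when 42 days old and carried a normal pregnancy. Their lactation lasted 21 days, and 40 days were then left for involution, in which the gland regresses once suckling ends. Nulliparous mice were virgins of the same age. No strain or genetic change is named in the labels, and every sample holds cells of the 4th mammary glands of 5 mice pooled together. Below, nulliparous pool 1 is a short name for replicate 1 of each nulliparous group. The sample titles do not say whether samples of the same number share mice. Sorting gave 6 subpopulations: stromal cells, total epithelial cells, luminal Sca1-negative cells (CD24+High Sca1-), luminal Sca1-positive cells (CD24+High Sca1+), basal CD49f-low cells (CD24+Low Sca1- CD49fLow) and basal CD49f-high cells (CD24+Low Sca1- CD49fHigh). There were 3 samples in every group but that of parous CD49f-high basal cells, which held 2 (replicates 2 and 3). RNA came from 2000 cells in the basal CD49f-high samples and from 10000 cells in the others. Sca1 and CD49f are surface proteins used to divide luminal and basal cells. Total epithelial cells were taken to contain the 4 sorted luminal and basal subpopulations. A comparison of total epithelial cells with a sorted epithelial subpopulation therefore sets a whole beside a part. Orders and tests over the 6 subpopulations include such comparisons.

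By their markers the sorted cells differed as their labels say. All 10 basal markers measured were higher, and all 9 pan-luminal markers lower, in basal than in luminal cells, and all 19 were lower in stromal than in total epithelial cells. The pan-luminal mean varied among stromal samples, from 6.59 to 8.61 in nulliparous and from 6.57 to 8.02 in parous mice. In basal CD49f-high cells it averaged 8.09 in nulliparous and 8.45 in parous mice. The mean of 10 fibroblast genes was 10.42 in nulliparous and 10.15 in parous stromal cells, against 5.88 to 6.90 in the other groups. The mean of 16 macrophage and dendritic cell genes lay between 5.40 and 5.97 in the 12 groups, and 8 of the 16 exceeded the median of 6.0 over all values in at least 1 group. Replicates correlated across genes at 0.977 to 0.991 for 10000 cells and at 0.963 to 0.978 for 2000 cells.

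Cathepsins are made as inactive precursors, tagged with mannose 6-phosphate in the Golgi, carried to the lysosome and activated there in the acid made by the vacuolar proton pump (v-ATPase). Most are cysteine proteases: Ctsb, Ctsc, Ctsh, Ctsk, Ctsl, Ctss and Ctsz. Ctsd is an aspartic protease and Ctsa a serine carboxypeptidase. Cystatins hold the cysteine cathepsins in check outside the lysosome. In the mammary gland, lysosomal proteases are best known from involution, when secretory cells are cleared and the gland is rebuilt, and Ctsd is also known as a secreted protein of breast epithelium. TFEB and its relatives, the transcription factors of lysosomal genes, bind a motif called CLEAR, which holds the letters CACGTG.

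The bases before the transcription start are shown for Ctsd and Ctsl, the members whose levels rose in parous luminal Sca1-negative cells, and for Ctsa and Ctss, which carry the other motif matches. They come from RefSeq on build GRCm38.p6, each covers 250 bases and ends just before the start, and 7 of the 9 genes have an entry in the table used (not Ctsb and Ctsh). Capitals mark CACGTG, the longer GTCACGTG that overlaps it, or, in Ctss, the interferon-type motif of GAAA, any 2 bases and GAAA again, each searched on both strands. Ctsd lies on the minus strand at chr7:142387828-142388077, Ctsl on the minus strand at chr13:64370521-64370770, Ctsa (the later of its 2 starts) on the plus strand at chr2:164833523-164833772, and Ctss on the plus strand at chr3:95526536-95526785.
Ctsd: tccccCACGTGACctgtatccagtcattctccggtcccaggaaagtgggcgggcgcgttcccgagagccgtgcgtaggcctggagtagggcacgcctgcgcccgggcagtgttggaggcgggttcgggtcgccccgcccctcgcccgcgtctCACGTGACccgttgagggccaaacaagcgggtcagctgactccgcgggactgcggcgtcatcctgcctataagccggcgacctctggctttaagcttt
Ctsl: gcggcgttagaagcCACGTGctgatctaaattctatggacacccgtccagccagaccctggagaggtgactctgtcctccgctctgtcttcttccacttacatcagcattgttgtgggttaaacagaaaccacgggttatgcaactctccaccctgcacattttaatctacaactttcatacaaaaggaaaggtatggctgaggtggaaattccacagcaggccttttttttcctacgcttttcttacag
Ctsa: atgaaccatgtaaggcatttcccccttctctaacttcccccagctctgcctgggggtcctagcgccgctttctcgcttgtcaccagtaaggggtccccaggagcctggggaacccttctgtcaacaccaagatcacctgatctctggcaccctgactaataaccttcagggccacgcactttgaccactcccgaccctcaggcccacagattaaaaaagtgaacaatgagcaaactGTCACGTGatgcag
Ctss: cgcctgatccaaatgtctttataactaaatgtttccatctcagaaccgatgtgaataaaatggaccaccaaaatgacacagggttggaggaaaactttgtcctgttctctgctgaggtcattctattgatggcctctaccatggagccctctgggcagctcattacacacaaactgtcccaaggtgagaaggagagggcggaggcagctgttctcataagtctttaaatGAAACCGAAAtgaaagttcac
CACGTG was found in 3 of the 7 genes (Ctsa, Ctsd and Ctsl) and in 6.02% of 32851 promoters of the same length. Ctsd holds it at 2 places, whose first bases lie 245 and 98 bases before the start. In Ctsa it lies 12 bases and in Ctsl 236 bases before the start. GTCACGTG was found in 2 of the 7 genes, Ctsa and Ctsd, and in 1.85% of promoters. The GAAA pair was found in Ctss alone among the 7, 21 bases before the start, and in 2.98% of promoters. A match of letters is a description and does not show that a factor binds there.

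Levels of most cathepsins differed between cell types. A moderated F test (limma, Benjamini-Hochberg adjustment over all genes) called level differences among the 6 subpopulations, averaged over history, for 8 of the 9 at an adjusted p under 0.05, against 52.7% of all genes. Ctsa was the exception, with an adjusted p of 0.149. Over the 15 pairs of subpopulations, limma called 29.2%, 32.6%, 37.0%, 26.4% and 29.3% of all genes between stromal cells and, in turn, total epithelial, Sca1-negative, Sca1-positive, CD49f-low and CD49f-high cells. Between total epithelial cells and the 4 sorted epithelial subpopulations in that order it called 13.2%, 24.0%, 2.25% and 13.6%. It called 16.1% between the luminal and 3.54% between the basal subpopulations. Sca1-negative cells differed from CD49f-low and CD49f-high cells at 21.5% and 23.5% of genes, and Sca1-positive cells at 31.3% and 31.7%. Each cathepsin had its own order over the cell types, and the 9 did not share a pattern: Ctsk was a stromal gene, Ctsl was lowest in luminal cells, Ctsd was highest there, and Ctsc and Ctsh separated the luminal subpopulations from each other.

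**Figure D1:**
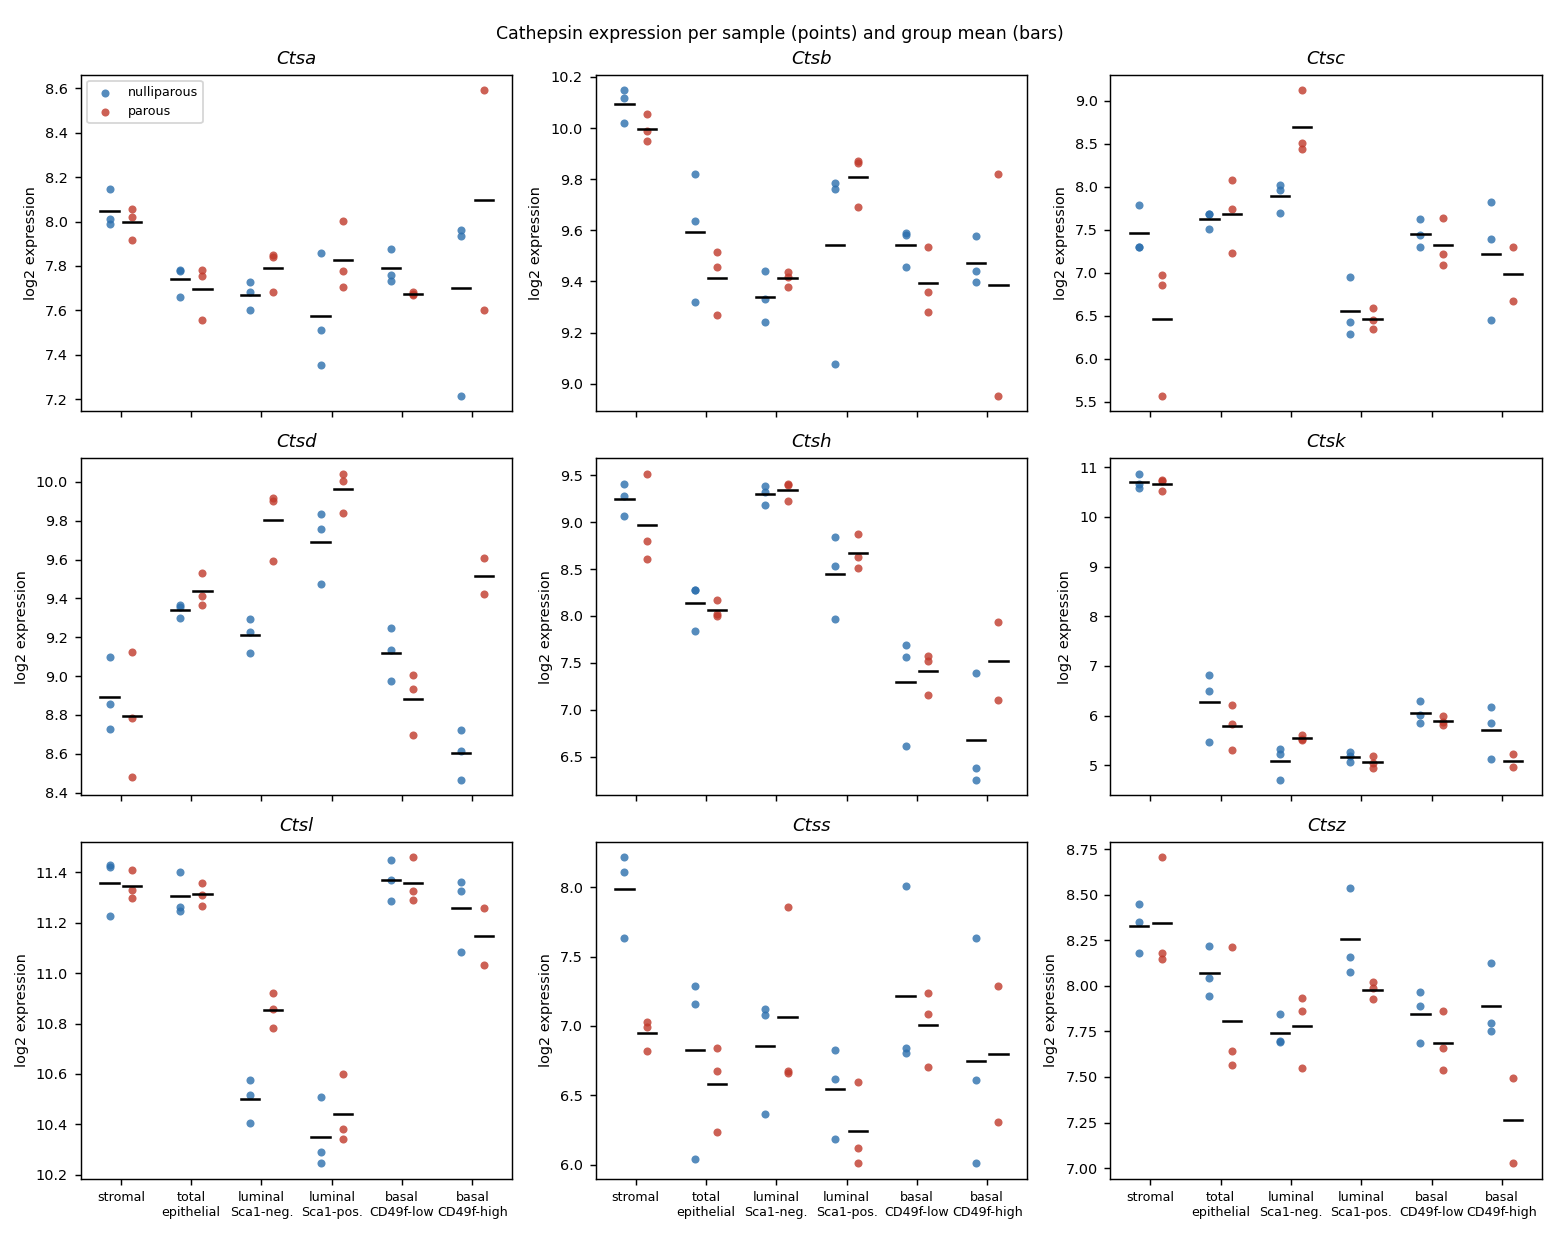
Log2 expression of each cathepsin (y axis, a separate scale per gene) in 6 sorted subpopulations (x axis); points are samples, blue for nulliparous and red for parous, and black bars are group means. Ctsk stands between 10.52 and 10.87 in the 6 stromal samples and below 7 in all others, and Ctsl has its lowest values in the luminal subpopulations.

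Ctsk, the collagen-cutting protease best known from bone-resorbing osteoclasts, was the member with the widest range. Its 3 nulliparous stromal samples read 10.67, 10.87 and 10.58 and its parous ones 10.52, 10.75 and 10.71. Total epithelial samples read 6.504, 6.82 and 5.48 in nulliparous and 5.84, 5.31 and 6.22 in parous mice. The stromal and epithelial ranges lie far apart, and the 2 histories overlap in both. Ctsk was 4.66 higher in stromal than in total epithelial cells (SE 0.18, limma adjusted p = 1.08e-18), a 25.2-fold difference. It was also 0.47 higher in basal than in luminal cells (SE 0.13, adjusted p = 0.00479), at means of 5.12 to 5.97 in the 4 sorted epithelial subpopulations. These means lie below the median of 6.0 over all values, so Ctsk was dim outside the stroma. Below stromal cells the order ran from total epithelial at 6.03 through basal CD49f-low at 5.97, basal CD49f-high at 5.40 and luminal Sca1-negative at 5.32 to luminal Sca1-positive at 5.12, and no neighbours in that run differed beyond the test's threshold. The 3 genes whose pattern was most like that of Ctsk over the 35 samples were Lama2, a laminin chain (Pearson's r 0.988), Efemp1, a matrix glycoprotein (0.987), and Srpx (0.985). These coefficients and those given for the other members are descriptions, since the points share groups.

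In stromal against total epithelial cells, 7 of the 9 passed the test, 5 higher and 2 lower in stroma, where 29.2% of all genes were called. The median difference was 0.40 for the members and 0.02 for all genes. Besides Ctsk, Ctsh was 1.01 higher in stromal cells (SE 0.20, adjusted p = 0.000175), Ctss 0.76 (SE 0.27, adjusted p = 0.0342), Ctsb 0.54 (SE 0.12, adjusted p = 0.000493) and Ctsz 0.40 (SE 0.12, adjusted p = 0.0139). Ctsd was 0.54 lower in stromal cells and Ctsc 0.69 lower, as differences of -0.54 (SE 0.10, adjusted p = 4.98e-05) and -0.69 (SE 0.22, adjusted p = 0.0163). The Ctss call was lost in 7 of 23 alternatives: without nulliparous pool 3 (0.206), without stromal parous replicate 2 or 3 or nulliparous replicate 1 or 3, and without replicate 3 of either history of total epithelial cells. Ctsc lost its call without stromal parous replicate 3 (0.0805) or epithelial parous replicate 1 (0.0571), and Ctsz without stromal parous replicate 1 (0.0622) or nulliparous pool 1 (0.0676). Ctsa (0.30, SE 0.13, adjusted p = 0.0732) and Ctsl (0.04, SE 0.06, adjusted p = 0.664) were not called.

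Ctsl is a broad-acting cysteine protease of the lysosome. Luminal Sca1-positive samples read 10.29, 10.24 and 10.51 in nulliparous and 10.34, 10.38 and 10.60 in parous mice. Basal CD49f-low samples read 11.28, 11.37 and 11.45 in nulliparous and 11.32, 11.29 and 11.46 in parous mice. No luminal Sca1-positive sample reached the basal range. Ctsl was 0.75 higher in basal than in luminal cells (SE 0.05, limma adjusted p = 5.3e-14). Over all 6 subpopulations the order was basal CD49f-low 11.36, stromal 11.35, total epithelial 11.31 and basal CD49f-high 11.20, which did not differ between neighbours beyond the threshold. Luminal Sca1-negative cells followed at 10.68 (adjusted p = 3.95e-07 against CD49f-high) and Sca1-positive cells at 10.39 (adjusted p = 0.00148 against Sca1-negative). The most similar genes were Scn7a, a sodium channel family member (r 0.955 over 35 samples), Hdgfl3 (0.954) and Antxr1, a collagen-binding receptor (0.952).

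Ctsd, the main aspartic protease of the lysosome, ran the other way. Its order was luminal Sca1-positive 9.83, luminal Sca1-negative 9.51, total epithelial 9.39, basal CD49f-high 9.06, basal CD49f-low 9.0 and stromal 8.85. Neighbours differed at Sca1-positive against Sca1-negative (0.32, SE 0.10, limma adjusted p = 0.021) and at total epithelial against CD49f-high (adjusted p = 0.0329). This order averages the histories, and the place of CD49f-high cells depended on history. They stood at 8.60 in nulliparous mice, below CD49f-low (9.12) and total epithelial cells (9.34). In parous mice they stood at 9.52, above CD49f-low (8.88) and total epithelial cells (9.44). Basal cells were lower than luminal cells, with a difference of -0.64 (SE 0.07, adjusted p = 1.33e-08). Ctsd and Ctsl correlated at -0.644 over the 35 samples, the lowest coefficient between any 2 members. The highest was 0.696, between Ctsb and Ctsk. The genes most like Ctsd were Mien1 (0.866), Atp2c1, a Golgi calcium and manganese pump (0.866), and Tmc4 (0.863).

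Ctsc and Ctsh, an activator of granule serine proteases and an aminopeptidase, were higher in luminal Sca1-negative than in Sca1-positive cells. Ctsc samples read 7.96, 7.69 and 8.01 in nulliparous and 9.13, 8.51 and 8.44 in parous Sca1-negative cells. In Sca1-positive cells they read 6.95, 6.42 and 6.29, and 6.45, 6.35 and 6.59. Every Sca1-negative sample exceeded every Sca1-positive one. Sca1-positive minus Sca1-negative gave -1.78 for Ctsc (SE 0.22, limma adjusted p = 3.74e-07). Ctsh samples read 9.33, 9.39 and 9.18, and 9.40, 9.41 and 9.23, in Sca1-negative cells, and 8.53, 8.84 and 7.96, and 8.63, 8.88 and 8.51, in Sca1-positive cells, with nulliparous values first. Again no sample of the 2 subpopulations overlapped, and the difference was -0.76 for Ctsh (SE 0.20, adjusted p = 0.00629).

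Ctsh also separated the lineages. It was lower in basal than in luminal cells by a difference of -1.71 (SE 0.14, limma adjusted p = 5.89e-11). Its order was Sca1-negative 9.32, stromal 9.11, Sca1-positive 8.56, total epithelial 8.10, CD49f-low 7.35 and CD49f-high 7.10, with stromal against Sca1-positive (adjusted p = 0.0276) and total epithelial against CD49f-low (adjusted p = 0.0415) the only neighbours past the threshold. The order of Ctsc was Sca1-negative 8.29, total epithelial 7.66, CD49f-low 7.38, CD49f-high 7.10, stromal 6.96 and Sca1-positive 6.51. No neighbours of Ctsc differed past the threshold, although 8 of its 15 pairs of subpopulations did, and the nearest to it was Sca1-negative against total epithelial (0.63, adjusted p = 0.0533). Genes most like Ctsc were Srgap3 (0.849), the chemokine receptor Cxcr4 (0.844) and Tbc1d4 (0.816), and those most like Ctsh were Cd55, a complement regulator (0.873), Sorbs2 (0.871) and Peak1 (0.869).

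In basal against luminal cells, 5 of the 9 members passed the test, 2 higher (Ctsl, Ctsk) and 3 lower (Ctsh, Ctsd, Ctsz) in basal cells, where 35.0% of all genes were called. In luminal Sca1-positive against Sca1-negative cells, 5 passed, 2 higher (Ctsz, Ctsd) and 3 lower (Ctsc, Ctsh, Ctsl), where 16.1% of all genes were called. That count fell to 3 when nulliparous pool 1 was left out of every subpopulation, and also when any of 4 single samples was left out. These were parous replicate 3 and nulliparous replicate 1 of Sca1-negative cells, and replicate 2 of either history of Sca1-positive cells. With the replicate number within each history as a block, Ctsb (limma adjusted p = 0.0425) and Ctss (0.048) were called as well. In basal CD49f-high against CD49f-low cells limma called 0 of the 9 after adjustment, where 3.54% of all genes were called. At an unadjusted p under 0.05 there were 2 members, and the share of all genes at that looser cut was not counted. The member with the largest difference there was Ctsk at -0.57 (SE 0.19, adjusted p = 0.0912).

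Ctsb, an abundant lysosomal endo- and dipeptidase, was highest in stromal cells at 10.05, followed by luminal Sca1-positive cells at 9.68, and lowest in luminal Sca1-negative cells at 9.38. Among neighbours in its order only the step from stromal to Sca1-positive cells passed the threshold. Legumain (Lgmn), the protease that cuts several cathepsins into their mature chains, was among the 3 genes most like Ctsb (r 0.834), after Vat1 (0.849) and Mapre2 (0.840). Ctsz, a carboxypeptidase, ran from 8.34 in stromal to 7.58 in basal CD49f-high cells without a called step between neighbours, and it was lower in basal than in luminal cells (-0.27, SE 0.09, limma adjusted p = 0.0182). That call was lost without parous CD49f-high replicate 2 (0.0859), without nulliparous pool 3 (0.075) and after quantile normalization (0.106). Its closest genes were Cep85l (0.814), Adam9, a membrane metalloprotease (0.813), and Oasl2 (0.773). Ctss, the protease that trims the invariant chain in antigen-presenting cells, ran from 7.47 in stromal to 6.39 in Sca1-positive cells, with 3 of 15 pairs called. The genes most like it were Plek (0.797), Hal (0.790) and Srgn (0.776), of which Plek and Srgn are known from blood cells. Ctsa, which also protects the lysosomal enzymes neuraminidase and beta-galactosidase, ran from 8.02 in stromal to 7.70 in Sca1-positive cells with 1 of 15 pairs called, and its closest genes were Nod1 (0.730), Cdh19 (0.723) and Rab31 (0.723).

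Reproductive history was the question of the study, and it moved few cathepsins. In luminal Sca1-negative cells 2 of 9 rose in parous mice, Ctsd and Ctsl, where 1.00% of all genes were called and 0.662% rose. In basal CD49f-high cells Ctsd rose and Ctsz fell, 2 of 9, where 9.06% of all genes were called. No member passed the test in the other 4 subpopulations. Since the samples are bulk RNA, a change in the share of a cell type and a change in RNA per cell cannot be told apart.

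**Figure D2:**
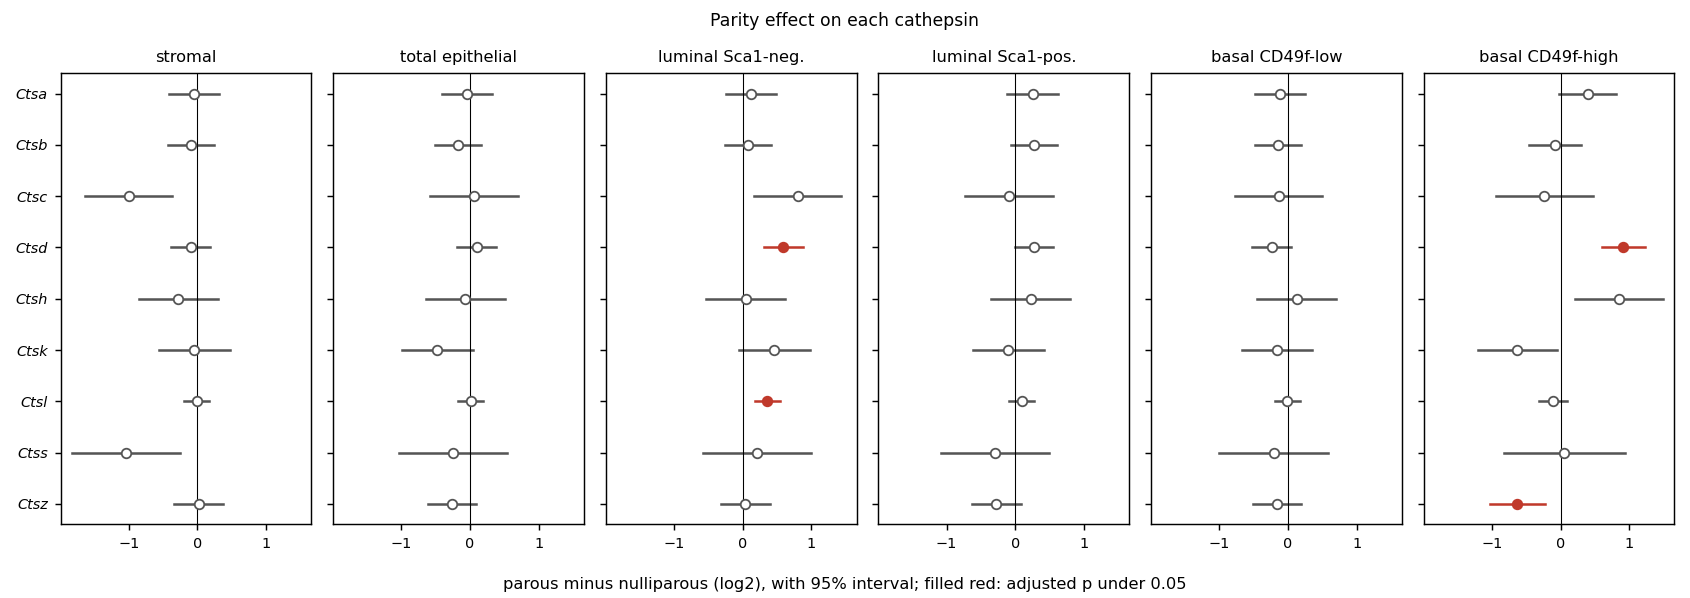
Parous minus nulliparous difference in log2 expression (x axis) of each cathepsin (y axis) in the 6 subpopulations, with 95% confidence intervals of the fit over all samples; filled red points passed an adjusted p under 0.05. Ctsd is red in luminal Sca1-negative (0.59) and basal CD49f-high cells (0.91), Ctsl in luminal Sca1-negative cells (0.35) and Ctsz in basal CD49f-high cells (-0.63).

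Ctsd was the member that changed most clearly. In luminal Sca1-negative cells its nulliparous samples read 9.12, 9.29 and 9.23 and its parous samples 9.92, 9.90 and 9.59. In basal CD49f-high cells the nulliparous samples read 8.61, 8.73 and 8.47 and the 2 parous samples 9.42 and 9.61. In both subpopulations every parous sample lay above every nulliparous one. The rise was 0.59 in Sca1-negative cells (SE 0.14, limma adjusted p = 0.0252), or 1.51-fold, and 0.91 in CD49f-high cells (SE 0.15, adjusted p = 0.000266), or 1.89-fold. The Sca1-negative rise lost its call when any 1 of 5 samples was left out (limma adjusted p of 0.0629 to 0.137): parous replicate 1 or 2 or any nulliparous sample. It was also lost after another quantile normalization (0.0639), in a fit of that subpopulation alone (0.0716) and without nulliparous pool 1 (0.114) or 3 (0.0725) in every subpopulation. The CD49f-high rise was called with each of its samples left out in turn, where 1 parous sample can remain and is assumed to vary like the other groups. It lost the call only in a fit of that subpopulation alone (0.224), in which limma called 0 of 19937 genes after adjustment and 2101 had an unadjusted p under 0.05.

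Ctsd was not called in the other subpopulations. Luminal Sca1-positive samples read 9.76, 9.837 and 9.48 in nulliparous and 10.004, 10.04 and 9.839 in parous mice. Every parous sample lay above every nulliparous one, by a narrow margin, but the difference of 0.27 (SE 0.14, limma adjusted p = 0.771) was not called. The effect in Sca1-negative minus that in Sca1-positive cells was 0.32 (SE 0.19, adjusted p = 0.905), also not called. Basal CD49f-low samples read 8.98, 9.25 and 9.14 in nulliparous and 9.01, 8.70 and 8.94 in parous mice. These ranges overlap, and the difference was -0.24 (SE 0.14, adjusted p = 0.575). In stromal cells the values were 8.86, 9.10 and 8.73 against 9.12, 8.78 and 8.48 in parous mice, with a difference of -0.10. Total epithelial samples read 9.35, 9.30 and 9.37 against 9.41, 9.53 and 9.37 in parous mice, which touch, with a difference of 0.10.

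The parity effect on Ctsd differed among the 6 subpopulations by the moderated F test (F = 9.19, limma adjusted p = 0.00398). It was the only member called, where 2.80% of all genes were. The clearest pair was the 2 basal subpopulations: the effect in CD49f-low minus that in CD49f-high cells was -1.15 (SE 0.20, adjusted p = 0.0021), where 2.27% of all genes were called. The effect in CD49f-high cells also exceeded that in stromal cells (-1.01 for stromal minus CD49f-high, adjusted p = 0.00432, with 3.38% of all genes called) and in total epithelial cells (-0.82, adjusted p = 0.0456, with 0.968% called). The effect in Sca1-negative minus that in CD49f-low cells was 0.83 (SE 0.19, adjusted p = 0.0513, with 0.301% called), and in Sca1-negative minus CD49f-high cells -0.32 (adjusted p = 0.423). Averaged over the 4 sorted epithelial subpopulations, Ctsd was 0.38 higher in parous mice (SE 0.07, adjusted p = 0.000694), the only 1 of 9 members called, where 6.20% of all genes were called and 2.72% rose.

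Ctsl rose in parous luminal Sca1-negative cells from 10.58, 10.52 and 10.40 to 10.78, 10.92 and 10.86, without overlap. The rise was 0.35 (SE 0.09, limma adjusted p = 0.0446), or 1.28-fold. Leaving out parous replicate 1, 2 or 3 or nulliparous replicate 2 or 3 ended the call (adjusted p of 0.072 to 0.194), as did a fit without the trend (0.076), quantile normalization (0.138), a fit of that subpopulation alone (0.119) and leaving out nulliparous pool 3 (0.117). In basal CD49f-high cells Ctsl read 11.36, 11.33 and 11.08 in nulliparous and 11.03 and 11.26 in parous mice, which overlap. The parity effect in Sca1-negative minus that in CD49f-high cells was 0.47 (SE 0.13, adjusted p = 0.0467, where 3.59% of all genes were called), whereas the F test over all 6 subpopulations did not call Ctsl (adjusted p = 0.228). In stromal and total epithelial cells its differences were -0.01 and 0.01.

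Ctsz fell in parous basal CD49f-high cells, from 8.12, 7.79 and 7.75 to 7.03 and 7.50, again without overlap. The difference was -0.63 (SE 0.19, limma adjusted p = 0.0385). Without parous replicate 2, the lower of the pair, it was -0.39 with an adjusted p of 0.387 (1 parous sample left), and the call was also lost without nulliparous replicate 1 (0.116) or 2 (0.0599). With arrays weighted by their quality the adjusted p was 0.305, and after quantile normalization 0.0688. In the other sorted epithelial subpopulations its differences were -0.28 in Sca1-positive, -0.16 in CD49f-low and 0.04 in Sca1-negative cells, none called.

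Ctsc and Ctss had larger differences that were not called. Ctsc in luminal Sca1-negative cells, with the values given above, was 0.80 higher in parous mice (SE 0.31, limma adjusted p = 0.275), and no parous sample lay within the nulliparous range. In stromal cells Ctsc read 7.30, 7.30 and 7.79 in nulliparous and 6.97, 6.86 and 5.57 in parous mice, a difference of -1.0 (SE 0.31, adjusted p = 0.198). Stromal Ctss read 8.22, 7.64 and 8.11 in nulliparous and 6.82, 7.03 and 7.0 in parous mice, a difference of -1.04 (SE 0.38, adjusted p = 0.333). Both genes were lower in every parous than in every nulliparous stromal sample, 2 of 9 members, where 6.33% of all genes were lower without overlap. In stromal cells limma called 0 of the 9 members after adjustment, where 0.597% of all genes were called. Only these 2 had an unadjusted p under 0.05, and the share of all genes at that looser cut was not counted.

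Immune markers were read beside Ctss and Ctsc, which are abundant in macrophages and related cells. The mean of 16 macrophage and dendritic cell genes was 5.79 ± 0.19 (SD, n = 3) in nulliparous and 5.63 ± 0.13 (SD, n = 3) in parous stromal cells, and limma called 0 of the 16 there, with 2 at an unadjusted p under 0.05. The median difference of the 16 was -0.03, beside 0.03 for all genes, and single differences ran from -1.04 to 0.19. The genes named next were singled out after their values were seen. Cd74, the invariant chain that Ctss cuts, averaged 6.37 in nulliparous and 5.33 in parous stromal cells, Aif1 5.99 and 5.34, and Tyrobp 7.14 and 6.77. Csf1r stood at 5.06 and 5.23 and Adgre1 at 4.24 in both. Means of Aif1, Csf1r and Adgre1 lay below the median of 6.0 over all values in both histories. Other cell markers differed in the same stromal comparison, where 0.597% of all genes were called. The mean of 10 endothelial markers was 7.50 ± 0.30 (SD, n = 3) in nulliparous and 6.89 ± 0.14 (SD, n = 3) in parous stromal cells, with Pecam1 called lower (-1.55). The mean of 10 basal markers was 7.90 ± 0.03 and 7.47 ± 0.12, with Krt14 (-2.0) and Krt5 (-1.85) called lower, and of 10 fibroblast genes Col3a1 (-0.88) was called lower. The part of these cells in the stromal differences was not tested. In luminal Sca1-negative cells the list mean was 5.87 in both histories.

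**Figure D3:**
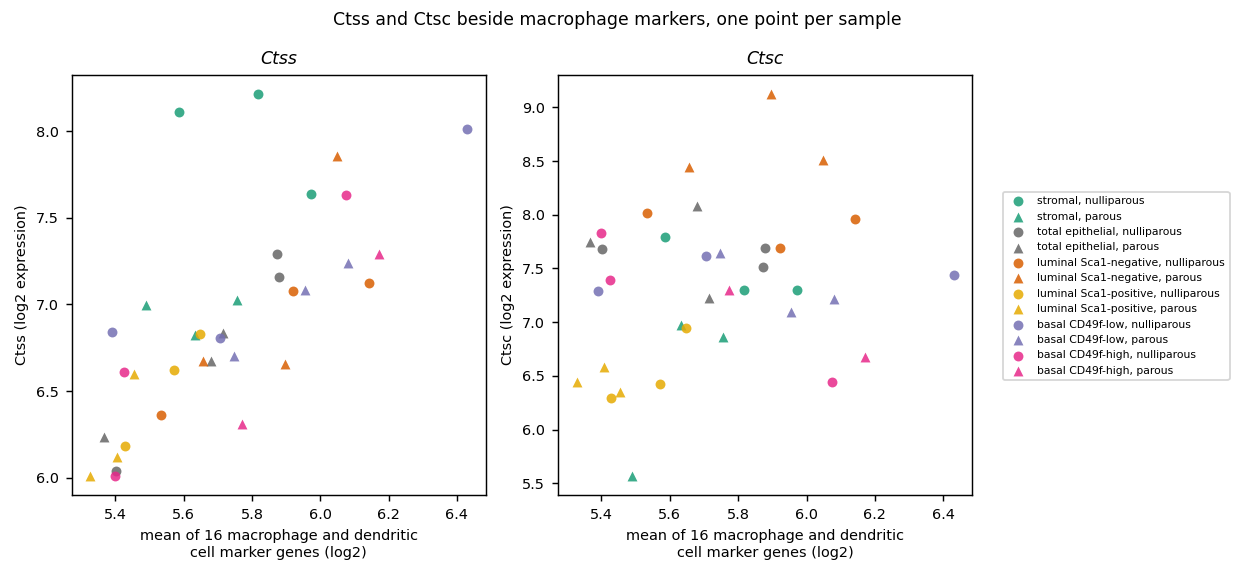
Log2 expression of Ctss (left) and Ctsc (right) in each of the 35 samples (y axis) against the mean log2 expression of 16 macrophage and dendritic cell genes (x axis); colours are subpopulations, circles nulliparous and triangles parous. Nulliparous stromal samples (green circles) hold Ctss values of 7.64 to 8.22, above the parous ones at 6.82 to 7.03.

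The other members did not change in a way that passed the test. In basal CD49f-high cells Ctsh read 7.39, 6.25 and 6.38 in nulliparous and 7.10 and 7.94 in parous mice, overlapping, with a difference of 0.85 (SE 0.31, limma adjusted p = 0.0922). Without nulliparous replicate 1 it was called (adjusted p = 0.00907). Without parous replicate 2 it was 1.27 (adjusted p = 0.0363), a value of the 1 parous sample left, with the spread taken from the other groups. Ctsk there read 6.17, 5.85 and 5.13 against 5.22 and 4.96 in parous mice, a difference of -0.63 (SE 0.28, adjusted p = 0.18), and leaving out nulliparous replicate 3 brought a call (adjusted p = 0.0463). The Ctsk group means of 5.72 and 5.09 lie below the median of 6.0 over all values. Ctsa had parous values of 8.59 and 7.60 around nulliparous ones of 7.96, 7.22 and 7.93; its difference was 0.39, and the parous sample of replicate 2 alone gave 0.89 (adjusted p = 0.00681, with the spread of the other groups) and that of replicate 3 alone -0.10. Ctsb read 9.44, 9.40 and 9.58 against 9.82 and 8.95, so its parous pair lay on either side of the nulliparous samples. Each of these comparisons has 2 parous samples, of 2000 cells each.

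In total epithelial, luminal Sca1-positive and basal CD49f-low cells limma called 0 of 9 members, where 0.446%, 0.607% and 0.968% of all genes were called. Of the members, 0 had an unadjusted p under 0.05 there. Differences of the members lay between -0.48 (Ctsk, total epithelial) and 0.27 (Ctsd, Sca1-positive). The 95% interval of the Ctsk difference in total epithelial cells ran from -0.996 to 0.04. Precision differed between members: in total epithelial cells the interval of Ctss was -1.03 to 0.54, and that of Ctsl -0.17 to 0.19. Without nulliparous pool 3, Ctsk in total epithelial cells was called (-0.87, adjusted p = 0.0298).

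In luminal Sca1-negative cells 4 of 9 members (Ctsc, Ctsd, Ctsk and Ctsl) had no overlap, all with parous samples above, where 7.31% of all genes were higher without overlap. In basal CD49f-high cells 2 had none (Ctsd above, Ctsz below), where 27.7% of all genes had none. The same held for 2 in Sca1-positive cells (Ctsd above, Ctsz below) and 1 in CD49f-low cells (Ctsa below). The share of all genes was not counted for Sca1-positive and CD49f-low cells. Ctsk in Sca1-negative cells read 5.33, 5.24 and 4.71 in nulliparous and 5.52, 5.60 and 5.54 in parous mice. Each of these readings lies below the median of 6.0 over all values. The Ctsk difference of 0.46 was not called (limma adjusted p = 0.527). The median parity difference of the 9 members in Sca1-negative cells was 0.21 against -0.04 for all genes, and in CD49f-high cells -0.08 against 0.04.

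The rest of the lysosome was read from lists of other genes. Among 7 inhibitors and activators of cathepsins, Cstb, a cytosolic inhibitor of cysteine cathepsins, fell in parous basal CD49f-high cells, with a difference of -0.46 (SE 0.13, limma adjusted p = 0.018), and no other member of that list was called in any single subpopulation. Cst3, the secreted inhibitor cystatin C, rose by 0.37 averaged over the 4 sorted epithelial subpopulations (SE 0.10, adjusted p = 0.0153). Of 20 lysosomal hydrolases measured, only Lipa, the acid lipase that frees cholesterol and fatty acids, was called in Sca1-negative cells. It rose from a mean of 8.50 to 9.82 without overlap, by 1.33 (SE 0.31, adjusted p = 0.0253). In CD49f-high cells only Arsb, a sulfatase of glycosaminoglycans, was called among the hydrolases, at -0.60 (adjusted p = 0.0318). Of all genes, 9.06% were called in CD49f-high cells, 1.00% in Sca1-negative cells and 6.20% in the mean over 4 subpopulations.

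**Figure D4:**
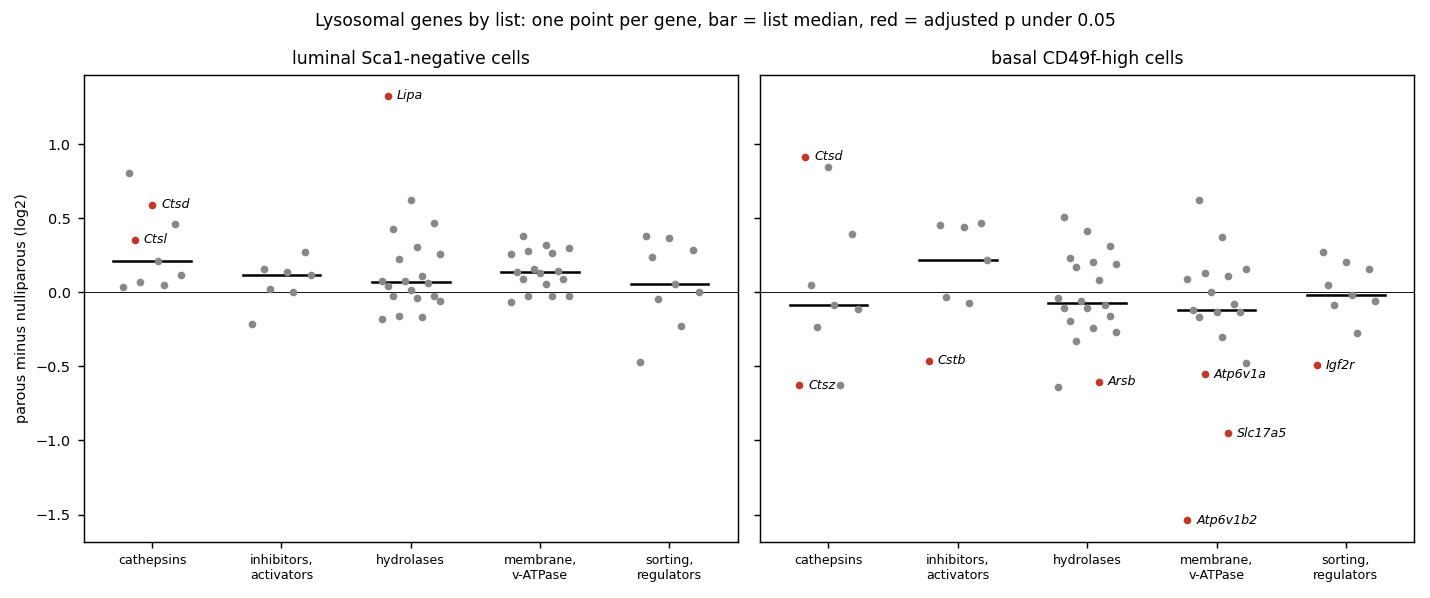
Parous minus nulliparous difference in log2 expression (y axis) of each gene in 5 lysosomal lists (x axis) in luminal Sca1-negative (left) and basal CD49f-high cells (right); bars are list medians and red points passed an adjusted p under 0.05. List medians lie between -0.12 and 0.22 in both panels.

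Of 17 lysosomal membrane and proton pump genes, 3 fell and 0 rose in parous CD49f-high cells, where 9.06% of all genes were called. The 1 of 20 hydrolases called there is below that share. Atp6v1b2 and Atp6v1a, subunits of the v-ATPase that acidifies the lysosome, had differences of -1.54 (SE 0.25, limma adjusted p = 0.000169) and -0.55 (adjusted p = 0.0129), and Slc17a5, the sialic acid exporter, -0.95 (adjusted p = 0.0416). In CD49f-low cells Cd63, a tetraspanin of late endosomes, was the only one called, at 0.33 (SE 0.08, adjusted p = 0.0412). There 0.968% of all genes were called. Among 9 sorting receptors and regulators, Igf2r, the mannose 6-phosphate receptor that carries cathepsins to the lysosome, fell in CD49f-high cells (-0.49, adjusted p = 0.0318). None of 5 other cathepsins (Ctse, Ctsf, Ctsg, Ctso and Ctsw) was called by limma in any parity comparison, and at most 2 had an unadjusted p under 0.05 (in total epithelial cells). The list medians in CD49f-high cells were -0.07 for hydrolases, -0.12 for membrane genes and -0.02 for sorting genes, beside 0.04 for all genes.

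Some markers of other cells and of secretion were called in the same comparisons as Ctsd. Of all genes, 1.00% were called in Sca1-negative and 9.06% in CD49f-high cells. The mean of 10 milk protein and milk synthesis genes was 8.35 ± 0.09 (SD, n = 3) in nulliparous and 9.74 ± 0.11 (SD, n = 3) in parous Sca1-negative cells, where 3 rose. In CD49f-high cells it was 6.42 ± 0.23 (SD, n = 3) and 8.02 ± 0.21 (SD, n = 2), where 5 rose, Csn1s1 by 5.24, and Xdh fell with a difference of -0.76. The mean of 10 basal markers went from 6.74 ± 0.14 to 7.21 ± 0.11 in Sca1-negative cells, with 3 called, and from 9.96 ± 0.26 to 10.52 ± 0.08 in CD49f-high cells, with 4 called. None of 9 pan-luminal markers was called by limma in any parity comparison, with at most 2 at an unadjusted p under 0.05 (in CD49f-low cells). Their mean in CD49f-high cells was 8.09 ± 0.34 in nulliparous and 8.45 ± 0.04 in parous mice. The mean of 10 endothelial markers in CD49f-high cells was 5.98 ± 0.45 in nulliparous and 5.56 ± 0.30 in parous mice, with Emcn called lower (-2.36). The mean of 6 adipocyte markers was 5.67 ± 0.15 and 6.13 ± 0.41, with Lep called higher (2.25). The macrophage list there averaged 5.63 ± 0.38 and 5.97 ± 0.28, and Cd68, a lysosomal glycoprotein abundant in macrophages, was 1.20 higher in parous samples (SE 0.29, adjusted p = 0.00819). In CD49f-high cells 1 of 10 endothelial, 1 of 6 adipocyte and 1 of 16 macrophage and dendritic cell genes were called. Beside 9.06% of all genes, a single call in so short a list says little about the list. The median difference was 0.24 for the macrophage and dendritic cell list, with single differences from -0.009 to 1.20. It was -0.06 for the endothelial and 0.17 for the adipocyte list, beside 0.04 for all genes. The part of these cells and genes in the Ctsd values was not tested.

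The lysosomal lists were also read between cell types. In stromal against total epithelial cells, where 29.2% of all genes were called, 9 of 20 hydrolases were higher in stroma and 0 lower, with a median difference of 0.34 beside 0.02 for all genes, led by Hexa (2.44), Gla (1.28), Arsb (0.99) and Acp2 (0.79), which break down glycolipids, glycosaminoglycans and phosphate esters. Of 17 membrane and pump genes 9 were higher, such as the cholesterol carrier Npc2 (1.10), and 3 lower, such as Scarb2 (-0.97), a lysosomal membrane glycoprotein. Mitf, a relative of TFEB, was 3.18 higher in stroma (SE 0.11), and Lgmn 1.38. These differences are on the log2 scale, and each named gene passed the test.

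In luminal Sca1-positive against Sca1-negative cells, where 16.1% of all genes were called, 7 of 20 hydrolases were higher, such as Fuca1 (0.99) and Asah1 (0.78), and 2 lower, Lipa (-2.99) and Galc (-1.04). Of the 17 membrane and pump genes 8 were higher, such as the cystine exporter Ctns (1.06), and 2 lower, such as Atp6v1b2 (-0.79). Cst3 was lower in Sca1-positive cells (-1.77, SE 0.13) and Lgmn higher (0.58), and the sorting receptors Sort1 (0.95) and Igf2r (0.54) were higher. Among the other cathepsins, Ctse (1.15) and Ctso (0.74) were higher in Sca1-positive cells. In basal against luminal cells, where 35.0% of all genes were called, Sort1 (-2.09), Ctse (-1.36), Cstb (-1.06) and Fuca1 (-1.19) were lower, and Arsb (0.85) and Gnptab (0.80), an enzyme that makes the mannose 6-phosphate tag, were higher. Every gene named here passed the test.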

How the data were processed

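Expression had been measured in 35 samples on 1-colour Affymetrix arrays. Per the labels' protocols, RNA of 2000 or 10000 sorted cells was amplified with a NuGEN Ovation Pico WTA kit, and fragments were biotin-labelled. Amplification of little RNA can widen the spread between samples. The authors deposited 1 log2 value per probe set and sample, with column medians of 5.81 to 5.92. The submitters' processing notes name affy; its version and its normalization, background correction, summary method and genome build were not given in the sources used here. Arrays give no read depth, and their number limits the precision.

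Of 34760 probe sets, 21640 had a single gene symbol in the platform annotation, 1321 several and 11799 none. Genes with more than 1 were represented by their brightest probe set (by mean over the 35 samples), giving 19937 genes. All samples were fitted as 12 group means in R 4.3.3 with limma 3.58.1 (lmFit, eBayes with trend), with Benjamini-Hochberg adjustment over all genes. Calls are at an adjusted p under 0.05, SE is that of the moderated fit, and intervals are 95%. Parity differences are parous minus nulliparous; differences between cell types average the histories. The script was tested on simulated data.

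All 9 cathepsins are described; from each other list, up to 4 called genes per direction and comparison could be named, and for each cathepsin the 3 genes of highest correlation. Levels of Cd74, Aif1, Tyrobp, Csf1r and Adgre1 were singled out after their values were seen. The members and lists were chosen with earlier results of these data known, and the milk gene list was added after the others. Alternatives were another normalization, trend, weights, filter, probe choice, blocks and left-out samples.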

Additional observations from a re-analysis of the deposited data

Results flagged for a closer look

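Ctsd was the only cathepsin whose parity effect differed among the 6 subpopulations by a test of the difference itself, a moderated F test with an adjusted p of 0.00398 (limma, Benjamini-Hochberg over all genes). Ctsd rose in parous luminal Sca1-negative and basal CD49f-high cells, and its differences in the other 4 subpopulations were not called. The call held in 45 of 45 alternatives, with adjusted p from 0.000871 to 0.0305. Groups of 2 or 3 samples are too small for the search for single samples that lie apart.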

How the results depend on the processing

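Over 2133 differences of the 9 cathepsins recomputed under alternatives, 2036 kept their side of the threshold (with the same sign where called, and a move under 1 SD where not), 60 lost their call, 21 gained a call, 16 uncalled values moved by more than 1 SD, and 0 called values reversed. The number called in luminal Sca1-negative cells, 2, was 1 without the trend, 0 after another quantile normalization, 0 with the samples of that subpopulation alone, 1 without nulliparous pool 1, 0 without nulliparous pool 3, and 0 to 1 when single samples were left out. The number in basal CD49f-high cells, 2, was 1 with array weights, 1 after quantile normalization, 0 with its own samples alone, 1 with weights shared within a subpopulation, and 1 to 3 when single samples were left out. With its own samples alone limma called 0 of 19937 genes there; over all genes the count was 1806, 590 with array weights and 488 with shared weights. Without nulliparous pool 3, total epithelial cells gave 1 called member in place of 0, and the F test of parity effects 2 in place of 1. The mean over 4 subpopulations ranged from 1 to 3, Sca1-positive against Sca1-negative cells from 3 to 5 (3 without nulliparous pool 1), and CD49f-high against CD49f-low cells from 0 to 1 with single samples left out. The cause of these changes was not tested. Leaving out pools 1 and 3 and the shared weights were chosen after seeing the data.

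Ctsd kept its call in 8 of 17 alternatives in Sca1-negative cells, 15 of 16 in CD49f-high cells and 34 of 34 in the mean over 4 subpopulations, Ctsl in 8 of 17 and Ctsz in 7 of 16. Replicate numbers were checked for pairing. Across histories, samples of a number correlated in their deviations at -0.0498 to 0.225 (17 pairs, 4 over 0.1), so these were taken to share only a number. That check cannot show whether subpopulations of the same history are paired. Within a history, 165 of 170 comparisons of a sample with another subpopulation gave its own number the highest correlation, among 2 or 3 numbers. Samples of a number within a history thus varied together, though the labels do not say whether they share mice. Same-number correlations ran from 0.0116 to 0.201 in parous and from 0.0295 to 0.338 in nulliparous mice. The main tests treated all samples as unpaired, so comparisons over several subpopulations took samples of a number as independent. For parity differences the block was the replicate number shared by both histories, which joins mice that share only a number. With it Sca1-negative cells kept a count of 2, with a limma adjusted p of 0.0101 for Ctsd and 0.024 for Ctsl, and CD49f-high cells kept 2. For differences between cell types the block was the replicate number within each history. With that block Sca1-positive against Sca1-negative cells gave 7 in place of 5, with Ctsb (0.0425) and Ctss (0.048) added. Stromal against total epithelial cells gave 5 to 7 when single samples were left out.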
